A study of Mus musculus with 4 samples.

Results

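The genes described here are those of 7 enzyme families that modify or remove foreign and endogenous small molecules, found in the deposited expression values by the start of their symbols: the UDP-glucuronosyltransferases (*Ugt*, 21 genes), the cytosolic glutathione S-transferases of the alpha, mu, omega, pi, and theta classes (*Gst*, 19 genes), the sulfotransferases (*Sult*, 19 genes), the flavin-containing monooxygenases (*Fmo*, 7 genes), the carboxylesterases (*Ces*, 19 genes), the aldehyde dehydrogenases (*Aldh*, 21 genes), and the aldehyde oxidases (*Aox*, 4 genes). Together they are 110 of the 24421 genes with a value. In the GENCODE M21 annotation of GRCm38, 109 of them are protein-coding and 1, *Ces2d-ps*, is an unprocessed pseudogene.

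RNA-seq was performed on cells of the mouse main olfactory epithelium (MOE) sorted by fluorescence from 2 reporter lines, with 1 library for each of the 4 groups. In TAAR enhancer 1-GFP mice, a PiggyBac transgene places TAAR enhancer 1 before the Hsp68 minimal promoter and GFP, and GFP-negative and GFP-positive cells were collected. In TAAR enhancer 2-tdTomato mice, the other enhancer stands before the same promoter and tdTomato, and tdTomato-negative and tdTomato-positive cells were collected. All groups carry a transgene, and no library comes from mice without one. Each line descends from a single founder, so effects of the insertion site cannot be told apart from effects of the enhancer. The labels give the strain C57BL/6 and adult age, while the study's reporting summary gives mixed backgrounds for its mouse lines and younger ages. It gives the GFP line a single postnatal age and the tdTomato line a range from that age up to the third postnatal week. Age may therefore differ between the lines. The transgenes were injected into eggs of C57BL/6J mice. The number of mice behind a library was not given in the sources used here. The transgenes report the activity of enhancers of the trace amine-associated receptor (*Taar*) genes of olfactory sensory neurons (OSNs), and the comparison made here is between reporter-positive and reporter-negative cells of each line.

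In detoxification, phase I enzymes such as cytochromes P450, flavin-containing monooxygenases, carboxylesterases, and aldehyde dehydrogenases and oxidases expose or create a polar group, and phase II transferases attach glucuronic acid, glutathione, or sulfate to it, so that the product can be exported. The MOE is rich in these enzymes. They are known mainly from its sustentacular cells and Bowman glands rather than from the neurons, and they act on inhaled compounds and on odorants in the mucus.

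Values are TPM, shares of all transcripts that correct for transcript length and sum to 1000000 in each library, so depth is unknown and no counting error can be given. A difference is the log2 of (TPM + 1) in reporter-positive cells minus that in reporter-negative cells of the same line, a scale on which weakly expressed genes show too small a change. A gene with at least 1 TPM in either library of a line was compared in that line, and it is called higher or lower where the difference reached 2-fold, a log2 difference of 1. With 1 library per group no difference can be checked against replicates, and none was tested. Over genes at 1 TPM or more in both libraries, the median difference was -0.83 in the GFP line (13057 genes) and -0.18 in the tdTomato line (12741 genes). In bulk libraries, fewer cells of a type and less RNA per cell cannot be told apart.

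Markers of other cell types moved with the reporter. The summed TPM of 12 mature OSN markers was 27841 in GFP-negative, 3065 in GFP-positive, 28641 in tdTomato-negative, and 12861 in tdTomato-positive cells, and 12 of 12 and 6 of 12 of them were lower in the positive cells of the GFP and tdTomato lines. The summed TPM of 9 sustentacular markers, of which *Sult1c1* is one, was 1142, 10927, 2030, and 10402 in the same order, with 9 of 9 higher in the GFP line and 5 higher and 2 lower in the tdTomato line. The 5 Bowman gland markers were higher in both lines, with sums of 1715, 68923, 230.2, and 2055 TPM. Of 9 multiciliated cell markers, 8 and 9 were higher. Of 5 horizontal basal cell markers, 4 were higher in the GFP line and 5 were lower in the tdTomato line. Of 6 microvillar cell markers, 3 were higher and 1 lower in the GFP line and 3 were lower in the tdTomato line, and of 4 stromal markers 3 were higher in the GFP line and none passed 2-fold in the tdTomato line. Of 4 immature OSN markers, 4 and 2 were lower, and 3 ensheathing cell markers were called in opposite directions in the lines. The 5 respiratory secretory markers, of which *Scgb1a1* is listed at 0 in all 4 libraries, summed to 1263, 66991, 8122, and 63595 TPM, with 4 of 4 compared higher in the GFP line and 3 higher and 1 lower (*Muc5ac*) in the tdTomato line. Of 6 immune cell markers, 5 were lower in each line and 1 was higher in the tdTomato line, with sums of 5838, 2211, 2602, and 1829 TPM. The endothelial markers compared, 3 and 2 of 4, were lower, with sums of 49.5, 1.55, 42.8, and 6.40 TPM. Neuronal markers of the labelled tissue were present in every library. Higher in both lines were 5 of 9 sustentacular, 5 of 5 gland, 8 of 9 multiciliated, and 3 of 4 compared respiratory secretory markers. The part of these cell types in the differences below was not tested.

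Most detoxification genes that could be compared were higher in reporter-positive cells. In the GFP line, 70 of the 110 genes were compared, of which 54 were higher and 5 lower in GFP-positive cells. Of all 16173 genes compared in that line, 14.2% were higher and 45.0% lower. In the tdTomato line, 63 of the 110 genes were compared, of which 40 were higher and 4 lower, and of all 15777 genes compared 17.2% were higher and 23.2% lower. The median difference of the compared detoxification genes was 2.23 in the GFP line and 1.32 in the tdTomato line, beside -0.88 and -0.23 for all compared genes. A gene that reached 1 TPM in the positive library alone could not be called lower. This holds for 18 genes in the GFP line and 13 in the tdTomato line, all of which were called higher. Among the 49 genes that reached 1 TPM in both GFP line libraries, 36 were higher and 2 lower, where 9.47% and 42.4% of all such genes were. Among the 47 such genes of the tdTomato line, 27 were higher and 1 lower, where 13.1% and 14.4% of all such genes were.

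Both lines called 37 of the 110 genes higher, which is 52.1% of the 71 that reached 1 TPM in any library, where 7.48% of all 16917 such genes were. With a pseudocount of 10, which weighs low levels less, 22 of the 71 were higher in both lines, where 3.44% of all genes were. Genes named below that then fell short of 2-fold in the GFP line are *Aldh1l1*, *Aldh7a1*, *Aox1*, *Ces1b*, *Ces1f*, *Ces2b*, *Sult2b1*, and *Ugt1a6b*, and in the tdTomato line *Aldh16a1*, *Aldh1l1*, *Aldh1l2*, *Aldh3b2*, *Ces2g*, *Gstm7*, and *Ugt2a2*. The lines share no library. Only *Sult6b1*, named after its values were seen, was lower in both lines (8.16, 0.359, 3.36, and 0 TPM in GFP-negative, GFP-positive, tdTomato-negative, and tdTomato-positive cells), where 13.7% of all genes were, and only *Gstt2* was called in opposite directions, where 2.90% were. Of the 37 genes higher in both lines, 36 had both positive libraries above both negative libraries, and *Gstm7* did not. Their selection as higher in both lines favours such an order, so this count is no separate support. Among the 37, 10 are listed at 0 in a negative library and could only be called higher in that line. Over these 71 detoxification genes, 49 had both positive libraries above both negative ones and 5 had both below, where 14.9% and 41.9% of all genes did. Scaling the libraries by the median ratio of genes, which raised the median difference of all genes by 0.88 in the GFP line and 0.16 in the tdTomato line, gave 57 higher and 4 lower in the GFP line (21.4% and 21.7% of all genes), 41 and 3 in the tdTomato line (18.5% and 19.9%), and 38 and 1 in both lines (10.3% and 9.20%). Opposite calls then numbered 1 (2.65%), and 54 genes had both positive libraries above both negative ones and 3 below (25.7% and 28.2%).

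Among the 62 genes compared in both lines, the difference had the same sign in 52 (83.9%), and for all 15033 genes compared in both the share was 71.9%. The signed difference was greater in the GFP line for 38 of the 62 genes and in the tdTomato line for 24. The share greater in the GFP line was 61.3% of these genes and 28.1% of all 15033 genes. Libraries with like labels were not alike. Between the GFP-negative and tdTomato-negative libraries, 23 of 55 detoxification genes (41.8%) differed by 2-fold, with a median size of 0.89, beside 23.8% and 0.43 for all genes. Between the positive libraries, 31 of 68 (45.6%) differed by 2-fold, with a median size of 0.90, beside 46.7% and 0.93 for all genes. Of the 37 genes higher in both lines, 35 (94.6%) had differences in both lines that were larger than the difference between the negative libraries, as did 89.6% of the 1266 genes higher in both lines among all genes.

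**Figure D1:**
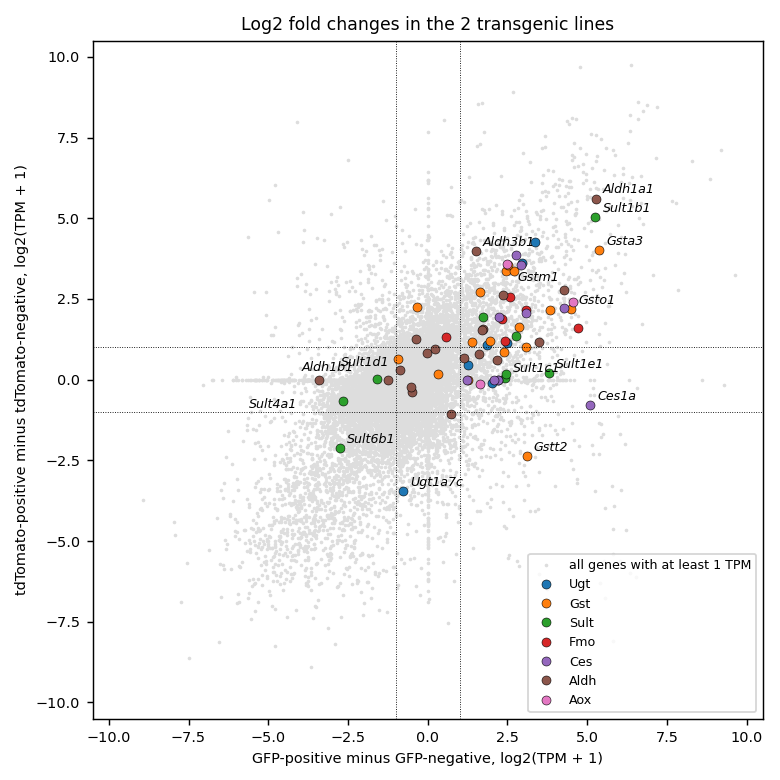
Difference between reporter-positive and reporter-negative cells, log2(TPM + 1), in the GFP line (x axis) and the tdTomato line (y axis). Each coloured point is 1 detoxification gene coloured by family, small grey points are all genes that reached 1 TPM in any library, and dotted lines mark 2-fold. The upper right corner holds the 37 genes higher in both lines, and *Gstt2* is the only coloured point past 2-fold in the lower right corner.

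The remaining genes were near or at 0. Of the 110 genes, 39 were under 1 TPM in every library, of which 23 are listed at 0 in all 4 libraries, and the highest of the other 16 reached 0.985 TPM. Many genes outside these families were as low: 16917 of all 24421 genes reached 1 TPM in any library, beside 71 of the 110. The genes listed at 0 are 7 *Ugt*, 9 *Sult*, 6 *Ces*, and 1 *Fmo* gene. They hold 8 *Sult2a* genes, which sulfonate steroids and bile acids in liver and lie side by side on chromosome 7 (13623967 to 14494230). The 7 *Ugt2b* genes, the main liver glucuronosyltransferases for steroids and drugs, were all under 1 TPM, with 4 listed at 0. Another 15 genes reached between 1 and 10 TPM, and 56 reached 10 TPM in at least 1 library.

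The summed TPM of the 110 genes was 2626 in GFP-negative and 9912 in GFP-positive cells, 0.263% and 0.991% of the library, which is a 3.77-fold difference. It was 3220.5 in tdTomato-negative and 11754 in tdTomato-positive cells, 0.322% and 1.18% of the library, which is a 3.65-fold difference. Without *Sult1d1* and *Sult4a1*, a pair chosen after their values were seen, the differences were 6.85-fold and 5.19-fold. Median-ratio scaling moved these ratios apart, from log2 values of 1.92 and 1.87 to 2.80 and 2.02. Ratios of the families are given for TPM as deposited. The *Ces* sum differed 21.0-fold in the GFP line and 4.81-fold in the tdTomato line, and the *Ugt* sum 5.44-fold and 2.26-fold. The *Aldh* sum went the other way, with 4.22-fold in the GFP line and 8.32-fold in the tdTomato line. The *Gst* sum differed 7.92-fold and 6.36-fold (9.35-fold and 4.08-fold without *Gstm1*), the *Fmo* sum 7.01-fold and 3.67-fold, and the *Aox* sum 6.13-fold and 2.10-fold. The *Sult* sum was nearly the same in all libraries as deposited, 1438, 1580.1, 1498, and 1541 TPM, with log2 ratios of 0.14 and 0.04, but its log2 ratio in the GFP line was 1.02 after median-ratio scaling.

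The makeup of the sum also differed between positive and negative cells. Sulfotransferases held 54.8% of it in GFP-negative and 46.5% in tdTomato-negative cells, but 15.9% and 13.1% in the positive cells. Glutathione S-transferases held 17.9% and 24.9% in the negative cells and 37.7% and 43.5% in the positive cells, where they were the largest family. The highest gene was *Sult1d1* in both negative libraries, with 38.1% and 30.5% of the sum, and *Gstm1* in both positive libraries, with 10.8% and 23.9%. At least 100 TPM was reached by 4 of the genes in GFP-negative, 18 in GFP-positive, 8 in tdTomato-negative, and 19 in tdTomato-positive cells. *Gstm1* ranked 11 among all genes of the tdTomato-positive library and *Aldh1a1* ranked 27, and in the GFP-positive library *Gstm1* ranked 60.

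**Figure D2:**
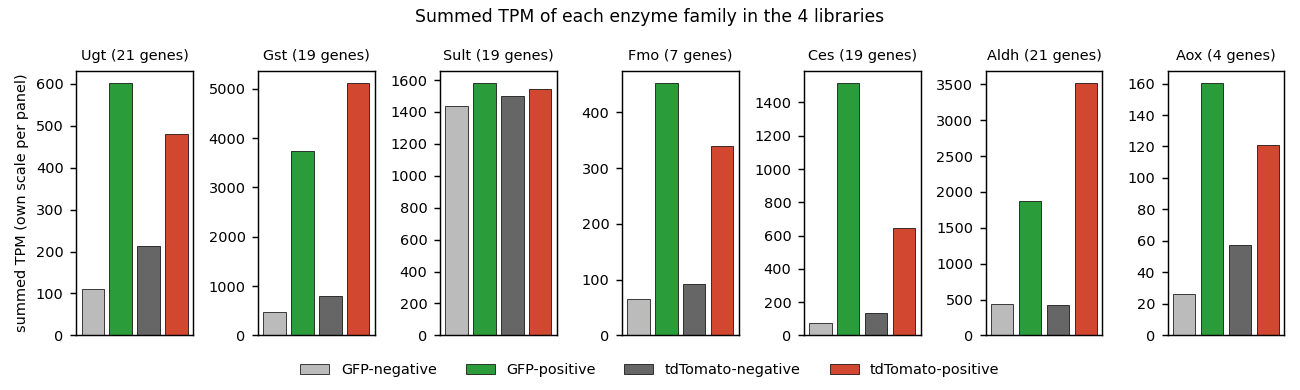
Summed TPM of each enzyme family (y axis, a separate scale in each panel, starting at 0) in the 4 libraries, 1 bar per library. In all 7 families both positive libraries stand above both negative libraries, but in the *Sult* panel the bars lie close together, between 1438 and 1580.1 TPM.

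Glutathione S-transferases attach glutathione to electrophiles such as products of lipid peroxidation and epoxides. Of the 19 *Gst* genes, 17 were compared in the GFP line, with 14 higher and none lower, and 16 in the tdTomato line, with 12 higher and 1 lower. Among those at 1 TPM or more in both libraries, 10 of 13 and 9 of 13 were higher. *Gstm1*, a mu class enzyme and the highest of the family, was at 187 TPM in GFP-negative, 1072 in GFP-positive, 239 in tdTomato-negative, and 2813 in tdTomato-positive cells, with differences of 2.51 and 3.55. Both positive libraries were far above both negative libraries. *Gsta3*, an alpha class enzyme that conjugates the epoxide of aflatoxin, was at 6.68, 316, 38.4, and 632 TPM in the same order of libraries (2.36 higher in tdTomato-negative than in GFP-negative cells on the log2 scale), with differences of 5.37 and 4.01. *Gsta4*, which conjugates the lipid peroxidation product 4-hydroxynonenal, was at 33.9, 495, 101, and 459 TPM. *Gsto1*, an omega class enzyme with thioltransferase and dehydroascorbate reductase activity, was at 45.2, 1044, 97.1, and 441 TPM, a 23.1-fold difference in the GFP line and 4.55-fold in the tdTomato line. Levels of *Gsta4* in the positive libraries were near each other, while *Gsto1* was higher in GFP-positive cells and *Gstm1* and *Gsta3* in tdTomato-positive cells.

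The other mu class genes lie beside *Gstm1* on chromosome 3 (107895821 to 108044894, 7 genes). *Gstm2* was at 45.2, 338, 84.9, and 262 TPM and *Gstm5* at 48.3, 188, 47.2, and 109 TPM, so that both were higher in both lines without overlap. *Gstm7* was at 1.46, 19.8, 26.9, and 55.5 TPM, which is past 2-fold in each line, but its tdTomato-negative level lay above its GFP-positive level. *Gstm4* was at 25.9, 13.0, 20.6, and 32.7 TPM and passed 2-fold in neither line, with differences of -0.94 and 0.64. The mu class cluster thus held neighbours with differences of unlike size. Of the 50-base windows of the *Gstm1* transcript, 18.9% also occur in another gene, most in *Gstm2-ps1*, so its level depends on how shared reads were assigned.

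In the pi class, *Gstp1*, an abundant transferase of many epithelia, was at 52.9, 140.5, 103, and 230.4 TPM, with differences of 1.39 and 1.16. It shares 33.7% of its windows with other genes, chiefly its neighbour *Gstp2*. In the theta class, which acts on small halogenated compounds among others, the 4 genes did not move together. *Gstt3* was at 7.62, 46.1, 2.12, and 31.0 TPM, with differences of 2.45 and 3.36. *Gstt1* was at 9.73, 12.5, 10.8, and 12.2 TPM and passed 2-fold in neither line. *Gstt2* was at 0.388, 10.9, 27.7, and 4.53 TPM, with differences of 3.10 and -2.37. The 2 negative libraries were the lowest and the highest for *Gstt2*. *Gsta2* was at 3.93, 25.0, 4.56, and 9.12 TPM, past 2-fold in the GFP line only, with a difference of 0.86 in the tdTomato line, and 49.8% of its windows occur in another gene, most in *Gsta1*.

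**Figure D3:**
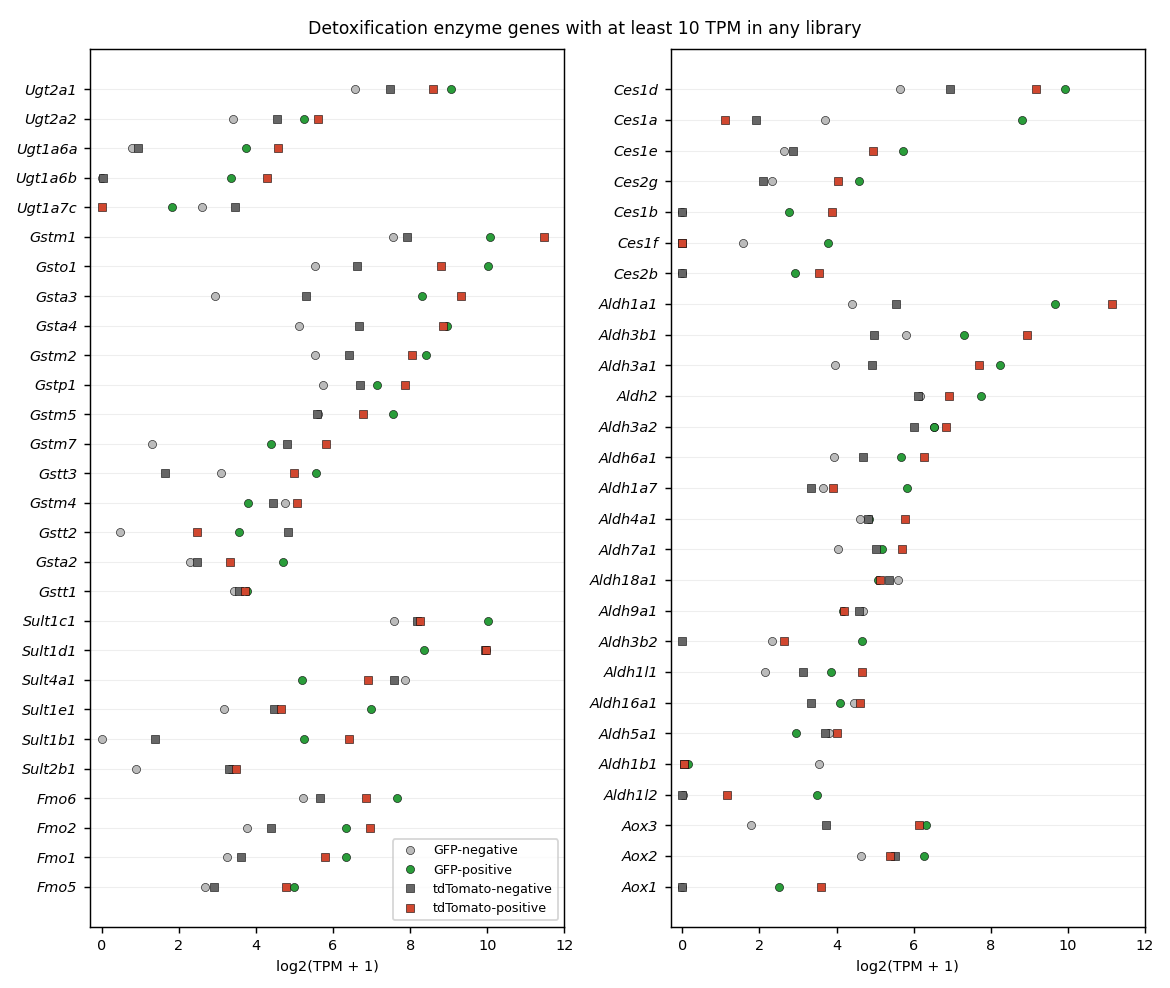
Level, log2(TPM + 1), of 55 of the 56 detoxification genes that reached 10 TPM in at least 1 library (1 is not shown), 1 point per library, ordered by family. Green and red points (GFP-positive and tdTomato-positive) lie to the right of both grey points for 40 genes, to the left for 4, and overlap with them for 11, while over all genes that reached 1 TPM both positive libraries were above for 14.9% and below for 41.9%.

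Glucuronosyltransferases transfer glucuronic acid from UDP-glucuronic acid in the endoplasmic reticulum. Of the 21 *Ugt* genes, 7 were compared in the GFP line, with 6 higher and none lower, and 6 in the tdTomato line, with 4 higher and 1 lower. Among those at 1 TPM or more in both libraries, 3 of 4 and 2 of 3 were higher. *Ugt2a1*, the olfactory glucuronosyltransferase, was at 93.7, 532, 177, and 388 TPM in GFP-negative, GFP-positive, tdTomato-negative, and tdTomato-positive cells, with differences of 2.49 and 1.13. *Ugt2a2*, which has its own first exon and the remaining exons in common with *Ugt2a1*, was at 9.53, 36.9, 22.3, and 48.2 TPM, with differences of 1.85 and 1.08. Both genes had both positive libraries above both negative libraries. They share 97.0% and 93.6% of their windows, so their sum is firmer than either level.

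The 8 *Ugt1a* genes on chromosome 1 (88055388 to 88220002) are alternative first exons joined to common later exons and conjugate bilirubin, phenols, and drugs. *Ugt1a6a*, a phenol enzyme, was at 0.729, 12.3, 0.933, and 22.7 TPM and its near copy *Ugt1a6b* at 0, 9.31, 0.0299, and 18.6 TPM. Both were under 1 TPM in both negative libraries and higher in both positive libraries. *Ugt1a7c* went the other way, with 5.04, 2.52, 10.04, and 0 TPM and differences of -0.78 and -3.46. Between 52.1% and 79.8% of the windows of these 3 genes occur in other genes, so the split between them depends on how shared reads were assigned. Their sum with the other *Ugt1a* genes was 5.78, 24.3, 11.9, and 41.3 TPM.

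Sulfotransferases transfer sulfate from PAPS to phenols, catechols, and steroids. The 10 *Sult* genes above 0 did not move as a group. In the GFP line 7 were higher and 3 lower, and in the tdTomato line, where 9 were compared, 3 were higher, 1 was lower, and 5 did not pass 2-fold. In the GFP line 5 of the 7 higher genes entered through the positive library alone, and in the tdTomato line 2 of the 3. *Sult1c1*, an olfactory sulfotransferase that marks sustentacular cells, was at 189, 1028, 291, and 304 TPM. Its GFP-positive level was 5.44-fold that of GFP-negative cells, while the tdTomato-positive level was 1.05-fold that of tdTomato-negative cells, with differences of 2.44 and 0.06. *Sult1e1*, which sulfonates estrogens, was at 8.09, 126, 21.0, and 24.2 TPM, with differences of 3.81 and 0.20. *Sult2b1*, a cholesterol sulfotransferase, was at 0.841, 9.14, 8.86, and 10.1 TPM. These 3 genes were higher in GFP-positive cells and near equal in the libraries of the tdTomato line. Other sustentacular markers of the same list did not all follow *Sult1c1*, and most that departed from it in the tdTomato line were higher there. In that line 5 were higher, and these 5 were higher in the GFP line too. The 2 that were lower, *Cyp2g1* and *Cyp1a2*, were higher in GFP-positive cells (differences of 2.06 and 3.02) and lower in tdTomato-positive cells (-1.54 and -1.67).

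*Sult1d1*, which sulfonates catecholamines in mice, was at 999.5, 329, 982, and 994 TPM, so 3 libraries were alike and GFP-positive cells were lower, with a difference of -1.60. Scaled by the median ratio of genes, its difference was -0.72 and no longer past 2-fold. *Sult4a1*, a brain form whose substrates are not well known, was at 232, 35.7, 190.4, and 119.5 TPM, with differences of -2.67 and -0.67, and it stayed past 2-fold in the GFP line under that scaling at -1.80. The mature OSN marker *Omp* was at 9584, 1108, 10108, and 4427 TPM in the same libraries. *Sult1b1*, which acts on thyroid hormones and small phenols, was at 0, 37.3, 1.60, and 83.9 TPM, with differences of 5.26 and 5.03. Without *Sult1d1* and *Sult4a1*, the *Sult* sum was 207, 1215, 326, and 427 TPM, ratios of 5.88 and 1.31 in place of 1.10 and 1.03.

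*Ugt2a1*, *Ugt2a2*, *Sult1b1*, *Sult1d1*, and *Sult1e1* lie next to each other at one end of a run of 13 *Ugt2* and *Sult1* genes on chromosome 5 (86889767 to 87591594). Within this run, *Ugt2a1*, *Ugt2a2*, and *Sult1b1* were higher in both lines, *Sult1e1* and *Ugt2a3* (at 3.05 TPM in GFP-positive cells, named after its values were seen) were higher in the GFP line only, and *Sult1d1* was lower there. The sequences around their transcription start sites are shown because these neighbours differed in direction, for *Sult1b1* at both of its listed starts, together with that of *Sult1c1* on chromosome 17 and of *Gsta3*, which had the largest difference of all *Gst* genes in the GFP line. Each run is 300 bases, 250 before and 50 after the start in RefSeq on GRCm38.p6, written 5′ to 3′ on the strand of the gene. Capitals mark TATAAA (the TATA box letters), GCGTG (the core bound by the aryl hydrocarbon receptor), and TGACNNNGC (the core of the antioxidant response element), each searched on both strands.
Ugt2a1, chr5:87490822-87491121, minus strand: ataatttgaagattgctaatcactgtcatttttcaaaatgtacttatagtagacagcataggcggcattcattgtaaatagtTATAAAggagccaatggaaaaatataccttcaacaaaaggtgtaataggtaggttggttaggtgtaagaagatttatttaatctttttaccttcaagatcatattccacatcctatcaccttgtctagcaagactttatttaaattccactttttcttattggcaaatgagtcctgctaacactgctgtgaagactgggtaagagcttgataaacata
Ugt2a2, chr5:87482209-87482508, minus strand: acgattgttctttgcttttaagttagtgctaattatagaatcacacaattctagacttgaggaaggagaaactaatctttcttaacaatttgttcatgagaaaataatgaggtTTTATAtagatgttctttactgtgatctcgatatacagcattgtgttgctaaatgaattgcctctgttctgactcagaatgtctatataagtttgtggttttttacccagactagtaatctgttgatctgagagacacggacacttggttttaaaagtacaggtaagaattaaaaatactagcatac
Sult1b1 (start 1), chr5:87538146-87538445, minus strand: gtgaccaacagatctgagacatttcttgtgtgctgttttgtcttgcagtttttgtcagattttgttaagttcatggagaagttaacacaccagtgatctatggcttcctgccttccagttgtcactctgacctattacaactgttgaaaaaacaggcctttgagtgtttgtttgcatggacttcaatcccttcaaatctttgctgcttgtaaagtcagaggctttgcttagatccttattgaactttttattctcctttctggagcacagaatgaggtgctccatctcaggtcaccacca
Sult1b1 (start 2), chr5:87536173-87536472, minus strand: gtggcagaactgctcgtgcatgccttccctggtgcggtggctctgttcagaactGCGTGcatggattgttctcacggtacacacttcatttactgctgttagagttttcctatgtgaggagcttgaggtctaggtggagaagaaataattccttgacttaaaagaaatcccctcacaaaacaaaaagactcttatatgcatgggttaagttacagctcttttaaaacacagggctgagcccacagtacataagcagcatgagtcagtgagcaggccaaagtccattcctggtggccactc
Sult1d1, chr5:87568957-87569256, minus strand: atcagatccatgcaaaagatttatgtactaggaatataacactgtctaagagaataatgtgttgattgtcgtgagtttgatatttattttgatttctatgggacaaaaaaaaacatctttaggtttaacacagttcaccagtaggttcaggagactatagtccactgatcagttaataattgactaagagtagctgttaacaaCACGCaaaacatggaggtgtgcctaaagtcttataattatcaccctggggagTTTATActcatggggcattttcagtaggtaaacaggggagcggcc
Sult1e1, chr5:87591562-87591861, minus strand: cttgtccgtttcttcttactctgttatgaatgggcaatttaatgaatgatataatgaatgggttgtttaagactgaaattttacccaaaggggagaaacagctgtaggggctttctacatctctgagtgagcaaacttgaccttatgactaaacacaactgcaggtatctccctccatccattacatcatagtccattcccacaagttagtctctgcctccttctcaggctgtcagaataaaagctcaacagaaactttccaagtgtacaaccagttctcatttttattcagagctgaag
Sult1c1, chr17:53990582-53990881, minus strand: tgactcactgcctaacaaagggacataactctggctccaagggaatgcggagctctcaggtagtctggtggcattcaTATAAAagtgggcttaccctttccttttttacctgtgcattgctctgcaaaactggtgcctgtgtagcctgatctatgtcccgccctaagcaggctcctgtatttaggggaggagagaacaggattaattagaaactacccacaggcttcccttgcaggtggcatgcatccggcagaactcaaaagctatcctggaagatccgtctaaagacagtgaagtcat
Gsta3, chr1:21240335-21240634, plus strand: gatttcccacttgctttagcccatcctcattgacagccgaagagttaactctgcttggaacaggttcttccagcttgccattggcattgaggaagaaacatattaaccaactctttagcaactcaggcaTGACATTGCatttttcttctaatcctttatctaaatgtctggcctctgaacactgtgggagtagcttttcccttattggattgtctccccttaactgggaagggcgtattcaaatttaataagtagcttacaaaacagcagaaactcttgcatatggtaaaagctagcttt

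TATAAA begins at base 83 of the run of *Ugt2a1*, at base 78 of *Sult1c1*, and, on the opposite strand (TTTATA), at base 114 of *Ugt2a2* and base 256 of *Sult1d1*. GCGTG is in the run of *Sult1d1* on the opposite strand (CACGC) at base 204 and in that of *Sult1b1* at its second listed start, at base 55. TGACNNNGC is in that of *Gsta3* at base 130. The run of *Sult1e1* and that of the first listed start of *Sult1b1* hold none of these motifs. Of the 110 genes, 89 had a promoter entry. TGACNNNGC was in those of 5 of the 89 genes (5.62%), namely *Aldh9a1*, *Gsta3*, *Gstm5*, *Gstm7*, and *Aldh1a2* (named for this match), and in 14.0% of the 27025 genes with an entry. GCGTG was in 20 of 89 (22.5%) beside 35.2% of all genes, and TATAAA in 18 of 89 (20.2%) beside 15.7%. A match describes letters in this window and is not a bound site.

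**Figure D4:**
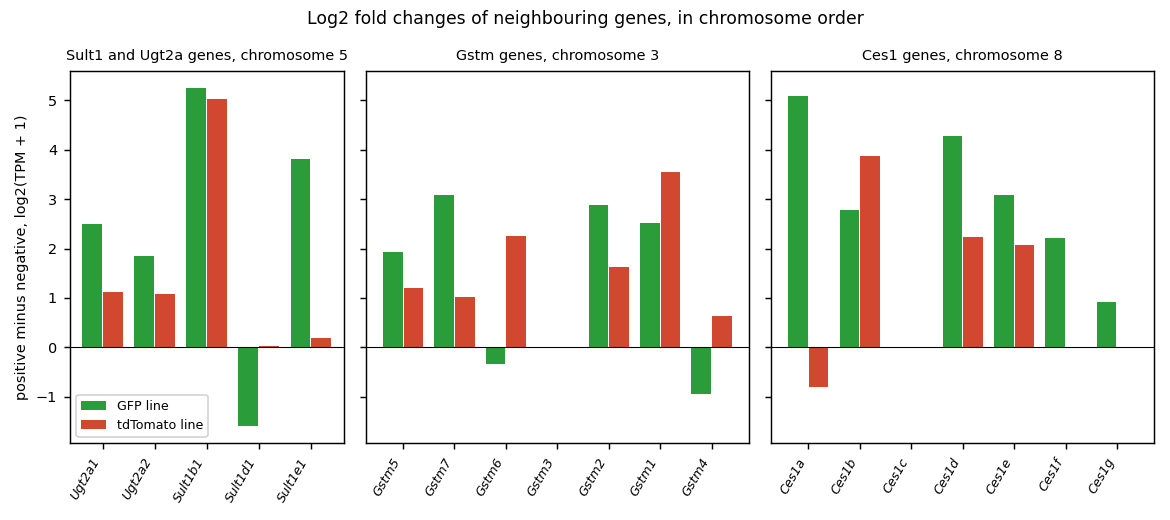
Difference between reporter-positive and reporter-negative cells, log2(TPM + 1), of neighbouring genes in chromosome order, with 1 green bar (GFP line) and 1 red bar (tdTomato line) per gene. *Sult1d1*, *Gstm4*, and *Ces1a* each have a bar well below 0 in 1 line, while *Ugt2a1*, *Ugt2a2*, *Sult1b1*, *Gstm1*, and *Ces1d* have both bars above 0.

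Flavin-containing monooxygenases add oxygen to nitrogen and sulfur atoms of small molecules. All 5 *Fmo* genes compared in the GFP line were higher, as were all 6 in the tdTomato line. Of these 6, 1 entered through the positive library alone, from 0 TPM in the negative one, and had to be higher. At 1 TPM or more in both libraries, 5 of 5 were higher in each line. *Fmo6*, with the highest value of the family in any library, was at 36.6, 199.7, 49.5, and 116 TPM in GFP-negative, GFP-positive, tdTomato-negative, and tdTomato-positive cells. *Fmo2*, the main lung form, was at 12.6, 79.5, 20.0, and 123 TPM, with differences of 2.57 and 2.56. *Fmo1* was at 8.60, 79.7, 11.3, and 54.2 TPM, and *Fmo5*, which also oxidises ketones, at 5.37, 30.7, 6.49, and 26.7 TPM. In each of these genes both positive libraries were above both negative ones.

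Carboxylesterases hydrolyse esters, thioesters, and amides. In the GFP line, all 9 *Ces* genes compared were higher, and in the tdTomato line 5 of 6 were higher. Of these, 4 and 2 entered through the positive library alone, from 0 TPM in the negative one, and had to be higher. Of the genes that reached 1 TPM in both libraries, 5 of 5 and 3 of 4 were higher. *Ces1d*, a lipid and xenobiotic esterase that was the highest of the family, was at 49.1, 963, 122, and 575 TPM, with differences of 4.27 and 2.23. *Ces1e* was at 5.19, 51.8, 6.34, and 30.0 TPM and *Ces2g* at 4.04, 22.9, 3.28, and 15.3 TPM, with differences of 3.09 and 2.08 and of 2.25 and 1.93. All 3 had both positive libraries above both negative libraries. *Ces1b* and *Ces2b* are listed at 0 in both negative libraries and were at 5.84 and 6.59 TPM in GFP-positive and 13.6 and 10.8 TPM in tdTomato-positive cells. *Ces1b* shares 11.6% of its windows with other genes.

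*Ces1a* stood apart. It was at 12.1, 445, 2.77, and 1.16 TPM in GFP-negative, GFP-positive, tdTomato-negative, and tdTomato-positive cells, with differences of 5.09 and -0.80. *Ces1f* was likewise found in the GFP line, at 1.98 and 12.7 TPM, and is listed at 0 in both libraries of the tdTomato line. Both lie with *Ces1d*, *Ces1b*, and *Ces1e* in a run of 8 *Ces* genes on chromosome 8 (93020214 to 93535830). *Ces1a* shares 0.0916% of its windows with other genes. Without *Ces1a* the *Ces* sum still differed 17.8-fold in the GFP line and 4.90-fold in the tdTomato line.

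Aldehyde dehydrogenases oxidise aldehydes to acids, and their 21 genes fell into unlike sets. Of 19 compared in the GFP line, 10 were higher and 2 lower, and of 17 in the tdTomato line, 8 were higher and 1 lower. Among those at 1 TPM or more in both libraries, 9 of 16 and 6 of 14 were higher and none was lower. *Aldh1a1*, which makes retinoic acid from retinaldehyde, was at 20.2, 816, 45.8, and 2271 TPM in GFP-negative, GFP-positive, tdTomato-negative, and tdTomato-positive cells, folds of 40.5 and 49.5 and differences of 5.27 and 5.60. *Aldh3a1*, which clears lipid aldehydes in cornea and airway, was at 14.5, 301, 29.1, and 207 TPM. *Aldh3b1*, which acts on lipid-derived aldehydes, was at 54.5, 156, 30.2, and 488 TPM, with differences of 1.50 and 3.97. Each of the 3 had both positive libraries above both negative libraries, with *Aldh1a1* and *Aldh3b1* higher in tdTomato-positive and *Aldh3a1* in GFP-positive cells. Without *Aldh1a1* the *Aldh* sum differed 2.49-fold and 3.30-fold.

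Lower in level but also higher in both lines were *Aldh6a1*, the methylmalonate semialdehyde enzyme of valine breakdown (14.3, 50.2, 24.9, and 75.8 TPM), *Aldh3b2* (3.98, 24.4, 0, and 5.22 TPM), and the folate enzymes *Aldh1l1* (3.40, 13.4, 7.81, and 24.3 TPM) and *Aldh1l2* (0.00587, 10.3, 0, and 1.23 TPM). *Aldh2*, the mitochondrial enzyme for acetaldehyde, was at 70.2, 214, 67.8, and 119 TPM, with differences of 1.59 and 0.81. *Aldh1a7*, a close relative of *Aldh1a1*, was at 11.5, 55.4, 9.04, and 14.1 TPM, and *Aldh7a1*, of lysine breakdown, at 15.4, 35.2, 31.3, and 50.9 TPM. These 3 were past 2-fold in the GFP line only, although the positive library was the higher one in each line.

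Of the 7 genes compared in both lines and past 2-fold in neither, 5 were *Aldh* genes and the others *Gstt1* and *Gstm4*. Median-ratio scaling put *Gstt1* (1.15 in the GFP line) and *Aldh4a1* (1.07 and 1.09) past 2-fold, as rescaling without the highest genes did for *Aldh4a1* in the tdTomato line (1.00). *Aldh9a1*, of carnitine synthesis, was at 24.6, 17.1, 22.8, and 17.3 TPM, and *Aldh18a1*, of proline synthesis, at 47.4, 32.6, 40.0, and 34.1 TPM. *Aldh3a2*, which oxidises fatty aldehydes, was at 91.5, 90.6, 63.5, and 114 TPM. *Aldh4a1*, of proline breakdown, *Aldh5a1*, the succinic semialdehyde enzyme of GABA breakdown, and *Aldh16a1* had differences of 0.22 and 0.95, of -0.86 and 0.31, and of -0.36 and 1.25, so that *Aldh16a1* alone of these 3 passed 2-fold in TPM as deposited, in the tdTomato line. *Aldh1b1*, a mitochondrial relative of *Aldh2*, was at 10.8 TPM in GFP-negative cells and at 0.118, 0.0297, and 0.0257 TPM in the other libraries, so its difference of -3.39 in the GFP line rests on 1 library.

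Aldehyde oxidases are molybdenum enzymes that oxidise aldehydes and nitrogen heterocycles, and their 4 genes lie side by side on chromosome 1 (58029931 to 58380259). *Aox3*, the main liver form in mice, was at 2.41, 79.1, 12.1, and 68.9 TPM, with differences of 4.55 and 2.41. *Aox2*, a form known from nasal mucosa, was at 23.7, 75.9, 44.8, and 40.8 TPM, with differences of 1.64 and -0.13. *Aox1* is listed at 0 in both negative libraries and was at 4.66 and 11.1 TPM in the positive ones. *Aox3* and *Aox1* had both positive libraries above both negative libraries, whereas *Aox2*, like *Sult1c1* and *Sult1e1*, was past 2-fold in the GFP line only.

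Genes that act beside the 7 families were counted in the same way, to be read against the 14.2% higher and 45.0% lower of all genes compared in the GFP line and the 17.2% and 23.2% in the tdTomato line. Of 13 genes for cofactors (UDP-glucuronic acid, PAPS, glutathione, and NADPH), none was higher and 1 was lower in GFP-positive cells, with a median difference of 0.18. In tdTomato-positive cells 4 were higher and 1 was lower, with a median of 0.41. *Gclc*, the catalytic subunit of the first enzyme of glutathione synthesis and the gene with the highest value of the list in any library, was at 76.4, 145, 106, and 342 TPM, with differences of 0.92 and 1.67. Whether the cofactor genes differed from the enzyme families was not tested.

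Of 14 conjugating enzymes outside the 7 families, 12 were compared in the GFP line, with 5 higher and 1 lower, and 11 in the tdTomato line, with 4 higher and 4 lower. *Mgst3*, a membrane-bound glutathione transferase with the highest value among them in any library, was lower in both lines at 734, 152, 844, and 375 TPM, the opposite direction to most *Gst* genes. *Nat1*, an arylamine acetyltransferase, was called in opposite directions, at 0, 3.87, 4.12, and 0.702 TPM. Of 20 other redox and hydrolytic enzymes, 11 were higher and 3 lower in the GFP line, and 9 were higher and 2 lower in the tdTomato line. *Cbr2*, a carbonyl reductase that is also on the sustentacular list, had the highest value of them in any library, at 435, 6411, 855, and 6327 TPM. *Nqo1*, a quinone reductase named after its values were seen, was lower in both lines at 1308, 226, 949, and 301 TPM.

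Of 11 regulators of detoxification genes, 7 were compared in the GFP line, with 1 higher and 3 lower, which are close to the shares of all genes in that line, and 8 in the tdTomato line, with 2 higher and none lower. *Nfe2l2*, which encodes NRF2, the factor that binds antioxidant response elements, was the highest of them in every library at 313, 119, 393, and 268 TPM, with differences of -1.38 and -0.55. *Nr1i3*, which encodes the xenobiotic receptor CAR, is listed at 0 in all 4 libraries. *Nr1i2*, which encodes the xenobiotic receptor PXR and was named after its values were seen, is listed at 0 in both negative libraries and was at 5.37 and 4.12 TPM in GFP-positive and tdTomato-positive cells.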

How the data were processed

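RNA-seq libraries of FACS-sorted MOE cells were analysed, 1 for each of 4 groups taken from the sample titles. The TPM values that the authors deposited cover 24421 genes, given by symbol, and are scaled for transcript length and depth. The submitters' processing notes name Trimmomatic 0.36, Salmon 1.4.0, and mm10, while the study's methods describe Hisat2, Cufflinks, and featureCounts for its RNA-seq. Kits named in the labels and in the methods also differ. The gene annotation was not given in the sources used here. Neither depth nor counts can be recovered from TPM, so no intervals were calculated, and tools that split reads between near-identical genes set the levels of such genes.

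Genes were chosen by symbol. Differences used log2(TPM + 1) with a pseudocount of 1, a minimum of 1 TPM in either library of a line, and a 2-fold call, with 1 library per group and no test. Changes of summed TPM are ratios of the sums. Genes named in the text have at least 10 TPM in any library or are the highest of their family. Among those named outside this rule are *Ces2d-ps*, for its annotation, and *Gstp2* and *Gsta1*, for windows they share with other genes. Of the other lists, the highest gene, those called in opposite directions, and those listed at 0 throughout are named, and others are said to be named after their values were seen. A further such gene is counted but not reported by name here. The genes and lists were chosen with earlier results of these data known. Alternatives were pseudocounts of 0.1 and 10, a minimum of 5 TPM and none, a 4-fold call, scaling by the median ratio over 11943 genes, and rescaling without 24 genes that are among the 10 highest of a library. Positions are from GENCODE M21 (GRCm38), shared windows of 50 bases from its transcripts, and promoters from RefSeq (GRCm38.p6). The calls were run on simulated libraries with 4-fold changes planted in genes at 10 TPM or more and little noise. That checks the code and not how far real libraries vary. Python 3.11.15, NumPy 2.4.6, pandas 2.3.3, and matplotlib 3.10.9 were used.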

Additional observations from a re-analysis of the deposited data

Results flagged for a closer look

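*Gstt2* had a difference of 3.10 in the GFP line (0.388 TPM in negative, 10.9 TPM in positive cells) and of -2.37 in the tdTomato line (27.7 TPM in negative, 4.53 TPM in positive cells). It was singled out because the lines moved in opposite directions. The difference between the lines was not tested, since each group has 1 library.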

How the results depend on the processing

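No paired analysis over the 2 lines was run. Every group consists of 1 library, and the lines, which carry different enhancers and reporters, were compared separately. With 1 library per group, no library could be left out. No direction of a count, sum, or named gene past 2-fold was reversed under the alternatives run. With a pseudocount of 10, 3 genes were lower in the GFP line (24.0% of all genes), 26 were higher and 2 lower in the tdTomato line (8.47% and 10.5%), and 22 were higher and 0 lower in both lines (3.44% and 6.03%). With a 4-fold call, 3 genes were lower in the GFP line (16.7%), 23 were higher in the tdTomato line (8.20%), and 20 were higher in both (3.35%). With a minimum of 5 TPM, 2 genes were lower in the tdTomato line (21.0%) and 0 in both (12.9%). Each of these settings is stricter by construction. Median-ratio scaling moved the log2 ratios of the sums in the GFP line, from 1.92 to 2.80 over all 110 genes and to 3.33 for *Ugt*, 3.87 for *Gst*, 1.02 for *Sult*, 3.69 for *Fmo*, 5.27 for *Ces*, 2.96 for *Aldh*, and 3.50 for *Aox*, since it raises the whole GFP-positive library against the GFP-negative one. *Gstt1* (1.15 in the GFP line) and *Aldh4a1* (1.07 and 1.09) then passed 2-fold, and *Sult1d1* (-0.72) did not. All 44 (GFP line) and 34 (tdTomato line) higher calls of the genes that reached 10 TPM held under both scalings and with a pseudocount of 0.1. A smaller pseudocount can only enlarge a positive difference. Both scalings raised the positive library against the negative one in each line. These settings therefore favoured higher calls and could hardly remove one. Of the same calls, 36 and 26 held with a pseudocount of 10. The unknown depth limits what can be said of genes near 1 TPM, and a gene listed at 0 may have been present below detection.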

Other observations

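Conjugate export and retinoid genes were also counted. Of all genes compared, 14.2% were higher and 45.0% lower in the GFP line, and 17.2% and 23.2% in the tdTomato line. Of 8 pumps that export conjugates, 7 were compared in each line. In the GFP line 1 was higher and 4 were lower, and in the tdTomato line 2 were higher and 2 lower. For 7 genes these counts lie near the shares of all genes. *Abcc1*, which exports glutathione conjugates and had the highest value of them, was at 141, 62.0, 133, and 157 TPM in GFP-negative, GFP-positive, tdTomato-negative, and tdTomato-positive cells. *Abcc3*, which exports glucuronides and was named after its values were seen, was higher in both lines at 6.17, 23.7, 6.08, and 14.1 TPM. *Abcg2* and *Abcb1a*, efflux pumps also named after their values were seen, were lower in both lines. Their differences were -1.49 and -1.93 and -1.60 and -2.53. Both genes were near the floor, *Abcg2* at 2.12, 0.109, 4.07, and 0.332 TPM and *Abcb1a* at 2.06, 0.00782, 4.86, and 0.0119 TPM.

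Of 14 genes that handle retinoids, upstream and downstream of the retinaldehyde dehydrogenase *Aldh1a1*, 13 were compared in the GFP line, with 6 higher and 3 lower, and 12 in the tdTomato line, with 5 higher and 1 lower. *Crabp1*, a cytoplasmic retinoic acid-binding protein gene with the highest value among them in any library, was lower in both lines at 278, 71.4, 208, and 10.5 TPM. *Dhrs9*, a retinol dehydrogenase gene named after its values were seen, was higher in both lines at 0.603, 115, 6.68, and 113 TPM, beside *Aldh1a1*. *Cyp26c1*, which encodes a retinoic acid hydroxylase, is listed at 0 in all 4 libraries. The medians over the compared retinoid genes were 0.73 and 0.54.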
